A study of Mus musculus with 15 samples.

Results

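The genes described here are 10 long non-coding RNA (lncRNA) genes that belong either to the architecture of the nucleus or to the production of small nucleolar RNAs (snoRNAs): *Neat1*, *Malat1*, *Kcnq1ot1*, *Gas5*, *Snhg1*, *Snhg5*, *Snhg6*, *Snhg8*, *Snhg12* and *Snhg15*. They were chosen by name, and the reads of all their annotated transcripts were summed per gene, out of 55266 genes with a feature in the files. *Neat1* is the RNA scaffold of paraspeckles, nuclear bodies that assemble on its long isoform, *Malat1* is a very abundant RNA of nuclear speckles, and *Kcnq1ot1* is transcribed from the paternal allele inside *Kcnq1* and silences neighbouring imprinted genes. The other members are snoRNA hosts: their introns carry the snoRNAs that guide modification of ribosomal and other RNAs, and the spliced host RNA that is left over is, for *Gas5* and several of its relatives, translated briefly and removed by nonsense-mediated decay. That decay needs translating ribosomes, and translation of hosts that start with a tract of pyrimidines depends on mTORC1, the growth-control kinase complex that the series inhibited.

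The cells were NIH3T3, an established mouse fibroblast line, carrying a doxycycline-inducible histone fusion, H2A-TerminaTOR or the control H2A-mCherry. TerminaTOR is a genetically encoded inhibitor of mTORC1 that the histone keeps in the nucleus, and all groups were starved. The 5 groups of 3 libraries were H2A-TerminaTOR cells given cycloheximide and PDGF, H2A-mCherry cells given cycloheximide and PDGF, H2A-mCherry cells given rapamycin and PDGF, H2A-mCherry cells given PDGF, and H2A-mCherry cells without PDGF. PDGF is a growth factor that restarts the fibroblast cell cycle, rapamycin inhibits mTORC1 in the whole cell, and cycloheximide blocks translation. TerminaTOR was thus compared with its control under cycloheximide, with no library of TerminaTOR cells lacking it. The sources used here state neither doses nor times, nor whether each line is a single clone or a pool. Libraries are numbered 1 to 3 in each group, with nothing said of separate cultures, so the p-values measure only the spread between these samples, and that may be technical.

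Library totals ran from 3466202 to 6777780 reads. Levels are CPM, a gene's reads relative to its library's total after TMM scaling, which lines up the bulk of genes between libraries, and changes are log2 fold changes with their standard error (SE) from edgeR's quasi-likelihood test over 10603 genes, called at a Benjamini-Hochberg adjusted p under 0.05. Of 12 fibroblast markers, 11 averaged over 1 CPM. Of 6 macrophage markers 2 did, with *Adgre1* at 0 reads, of 4 epithelial markers 1 did, with *Krt18* and *Epcam* at 0 reads, and of 4 endothelial markers 1 did.

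What could be seen of each gene was set by how the reads were counted, per transcript. Genes whose exon bases are all shared between transcripts had almost no reads: of 316 such protein-coding genes and 147 such non-coding genes, 0 had a mean count of 10 or more. Bases covered by 1 transcript alone were found with the GENCODE M21 annotation of GRCm38. *Malat1* (chromosome 19, 5795690 to 5802672, minus strand) had 5021 of these unshared bases and 475390 reads, all on transcript ENSMUST00000172812.2. *Neat1* (chromosome 19, 5824708 to 5845478, minus strand) lies 22035 bases from *Malat1*. It had 17047 unshared bases, all in the long isoform ENSMUST00000173672.1, to which all of its 20405 reads were assigned. Of these bases, 157 lie within the intron of the shorter transcript ENSMUST00000174287.1, where unspliced RNA of that span would be counted too. The values given for *Neat1* are thus those of reads assigned to the long isoform, and where the reads fell along it was not examined. *Kcnq1ot1* (chromosome 7, 143203458 to 143296549, minus strand) is annotated as a single unspliced transcript with 91973 unshared bases and had 5718 reads. No source used here says if the kit marked strand, so its reads cannot be told apart from unspliced *Kcnq1* RNA of the opposite strand.

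For the host genes the bases that could be counted lay mostly in introns of other annotated forms. *Snhg6* (chromosome 1, 9941959 to 9944118, minus strand, host of *Snord87*) had 1262 reads, all on ENSMUST00000182819.7. The 326 bases that belong to that transcript alone form the start of its first exon and lie within introns of other *Snhg6* transcripts. *Snhg15* (chromosome 11, 6525591 to 6528760, minus strand, host of *Snora9*) had 516 reads on ENSMUST00000129570.1, through 293 bases that are intron in other transcripts, and 42 reads on ENSMUST00000134527.1, through 134 and 140 bases on either side of *Snora9*. *Gas5* (chromosome 1, 161034422 to 161038539, plus strand) has 25 annotated transcripts, of which 20 are retained-intron forms, and 33 of its 44 reads fell on ENSMUST00000161229.7, through 199 and 278 bases that flank a snoRNA and are intron in other transcripts. The most read transcripts of *Snhg6* and *Snhg15* are themselves annotated as spliced, with 3 and 2 exons, and the stretches belong to their own first exons. The counts of these 3 hosts therefore follow RNA that holds such stretches, spliced or not, and host RNA without them was not measured. The remaining hosts had still fewer unshared bases or reads: *Snhg5* (host of *Snord50a* and *Snord50b*) 17 reads, *Snhg8* (host of *Snora24*) 14 reads, and *Snhg1* and *Snhg12* 0 reads each, with 103 and 12 unshared bases. The snoRNAs themselves had 0 reads, apart from 3 reads on *Snord87*.

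The stretches that carry the host-gene findings below are shown first, on GRCm38 and 5′ to 3′ on the gene's strand. The *Snhg6* line gives the last 300 of the 326 counted bases (chr1:9942898-9943197, minus strand). The *Snhg15* line gives all 293 (chr11:6526438-6526730, minus strand), where the capitals mark the final dinucleotide, which directly precedes an internal exon of 2 other transcripts. The *Gas5* line (chr1:161035334-161035533, plus strand) has the snoRNA annotated as *Gm26224* in capitals with 60 bases of the counted intron on each side.
Snhg6: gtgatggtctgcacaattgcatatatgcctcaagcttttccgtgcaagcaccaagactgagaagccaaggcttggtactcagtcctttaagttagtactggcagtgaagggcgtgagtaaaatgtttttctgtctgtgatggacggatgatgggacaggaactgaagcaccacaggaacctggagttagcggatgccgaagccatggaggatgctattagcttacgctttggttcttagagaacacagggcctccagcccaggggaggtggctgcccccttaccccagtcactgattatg
Snhg15: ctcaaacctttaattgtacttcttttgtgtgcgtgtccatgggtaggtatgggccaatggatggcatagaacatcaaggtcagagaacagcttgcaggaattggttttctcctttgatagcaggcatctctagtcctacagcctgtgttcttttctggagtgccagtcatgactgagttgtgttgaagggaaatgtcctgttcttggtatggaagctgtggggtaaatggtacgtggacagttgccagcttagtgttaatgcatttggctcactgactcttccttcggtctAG
Gas5: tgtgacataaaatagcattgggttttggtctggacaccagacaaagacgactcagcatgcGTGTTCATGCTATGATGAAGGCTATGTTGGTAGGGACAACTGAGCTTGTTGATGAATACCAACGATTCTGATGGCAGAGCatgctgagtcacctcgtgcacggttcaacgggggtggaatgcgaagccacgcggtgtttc

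Libraries were made from RNA captured on oligo-dT beads, so runs of A within an RNA are also shown for the nuclear lncRNAs, in capitals. The longest run in *Kcnq1ot1* was 41 A (chr7:143226905-143227025, minus strand), 23487 bases before the end of the 93092-base transcript, which holds 8 runs of at least 12 A. *Malat1* had a single run of 12 A (chr19:5795948-5796039, minus strand), 298 bases before its annotated end, and the longest in the long isoform of *Neat1* was 7 A. Of 7040 annotated transcripts of at least 5000 bases, 19.7% held a run of at least 12 A. Whether the runs took part in the capture was not tested.
Kcnq1ot1: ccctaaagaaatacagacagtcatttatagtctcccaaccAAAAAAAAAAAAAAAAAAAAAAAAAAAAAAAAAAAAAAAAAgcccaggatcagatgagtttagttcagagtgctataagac
Malat1: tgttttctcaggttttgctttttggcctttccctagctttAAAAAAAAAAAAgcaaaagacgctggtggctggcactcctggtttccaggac

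**Figure D1:**
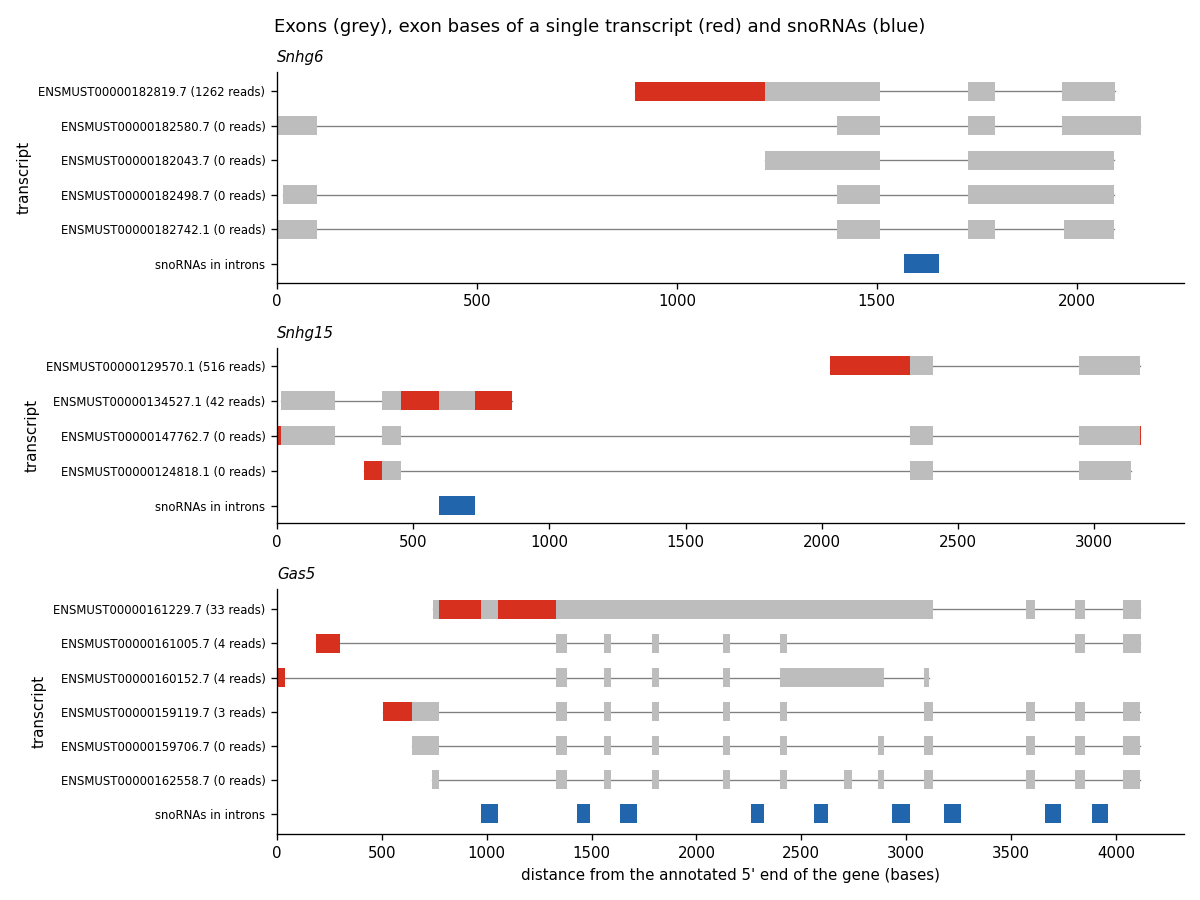
Exons of annotated transcripts (grey), exon bases that belong to a single transcript (red) and snoRNAs in introns (blue) of *Snhg6*, *Snhg15* and *Gas5* (6 of its 25 transcripts), by distance in bases from the 5′ end of the gene, with each transcript's reads over the 15 libraries. Most reads fall on transcripts whose red bases are intron in other forms: 1262 for *Snhg6*, 516 and 42 for *Snhg15*, and 33 for the most read *Gas5* transcript. *Snhg15* transcript ENSMUST00000124818.1 has 67 such bases and 0 reads. *Gas5* transcript ENSMUST00000160152.7 has 4 reads, though its 36 red bases lie in no intron of another form.

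Divided by the bases that could be counted, *Malat1* stood highest: in H2A-mCherry cells with PDGF it reached 1609 CPM per counted kb, *Snhg6* 106, *Snhg15* 23.3, *Neat1* 18.3 and *Kcnq1ot1* 0.964. The longest unshared stretch was 326 bases in *Snhg6* and 293 in *Snhg15*, against 2830 in *Malat1* and 14294 in *Neat1*. Reads that cross the edge of a stretch, or the place of a stretch in the RNA, were not allowed for, so levels of different genes compare only roughly. The coefficient of variation within a group was 5.82% to 22.7% for *Malat1* over the 5 groups. It ran from 18.8% to 42.4% for *Neat1*, from 10.4% to 36.0% for *Kcnq1ot1*, from 12.8% to 27.6% for *Snhg6* and from 11.2% to 78.9% for *Snhg15*.

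*Neat1*, *Kcnq1ot1* and *Snhg6* rose with PDGF. *Neat1* had 433, 245 and 256 CPM in the 3 libraries with PDGF, against 77.4, 77.0 and 152 CPM in the 3 without. Every PDGF library was above every library without it, and the change was 3.02-fold (log2 1.60 ± 0.38 SE, edgeR adjusted p = 0.00627). *Kcnq1ot1* had 124, 63.1 and 78.5 CPM with PDGF, against 41.2, 35.3 and 64.3 CPM without. The groups overlapped by 1 library, the third without PDGF, and the change was 1.87-fold (log2 0.90 ± 0.30, edgeR adjusted p = 0.0355). That call was lost without either the first or the second library lacking PDGF (adjusted p = 0.111 in both cases), and without the first or the third PDGF library (adjusted p = 0.142 and 0.0531).

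*Snhg6*, the host of *Snord87*, had 27.3, 35.9 and 40.6 CPM with PDGF, against 24.2, 24.7 and 17.6 CPM without, with no overlap. The rise was 1.57-fold (log2 0.65 ± 0.18, edgeR adjusted p = 0.00297), and without the third PDGF library the adjusted p was 0.0528. *Snhg15* had 12.1, 12.7 and 14.9 CPM with PDGF, against 11.6, 7.85 and 6.54 CPM without; the groups did not overlap, but the change of log2 0.61 ± 0.28 missed the threshold (edgeR adjusted p = 0.0816). *Malat1* had 9508, 6835 and 7892 CPM with PDGF, against 5893, 5563 and 8302 CPM without, and its change of log2 0.29 ± 0.17 was not called (edgeR adjusted p = 0.224). Without the third library lacking PDGF, in which *Malat1* was highest of its group, the change was log2 0.51 (adjusted p = 0.0321).

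In all, 3 of the 5 members that could be tested rose with PDGF and 0 fell, whereas 20.1% of all genes tested rose and 16.9% fell. Among 946 genes of the lncRNA classes that were tested, 156 rose and 108 fell. In a culture of a single line, fewer cells with an RNA and less of it per cell cannot be told apart. Other measures moved with PDGF too: the mitochondrial share of counts was 8.69% to 9.30% with PDGF and 11.1% to 12.2% without, and the 6 macrophage markers together reached 16.0 to 18.8 CPM with PDGF and 6.72 to 11.3 CPM without. Of these, *Cd14* rose, with 12.6 ± 1.32 CPM with PDGF and 6.19 ± 2.75 CPM without (SD, n = 3 each; edgeR adjusted p = 0.001), *Lyz2* was not called (adjusted p = 0.649), and *Adgre1*, *Csf1r* and *Ptprc* had 0 reads in both groups. The 4 endothelial markers together had 3.11 to 4.39 CPM with PDGF and 0.654 to 2.00 CPM without, and *Cdh5* rose (adjusted p = 0.0175), while *Kdr* and *Tek* had 0 reads in both groups. The part of these measures in the members' changes was not tested.

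**Figure D2:**
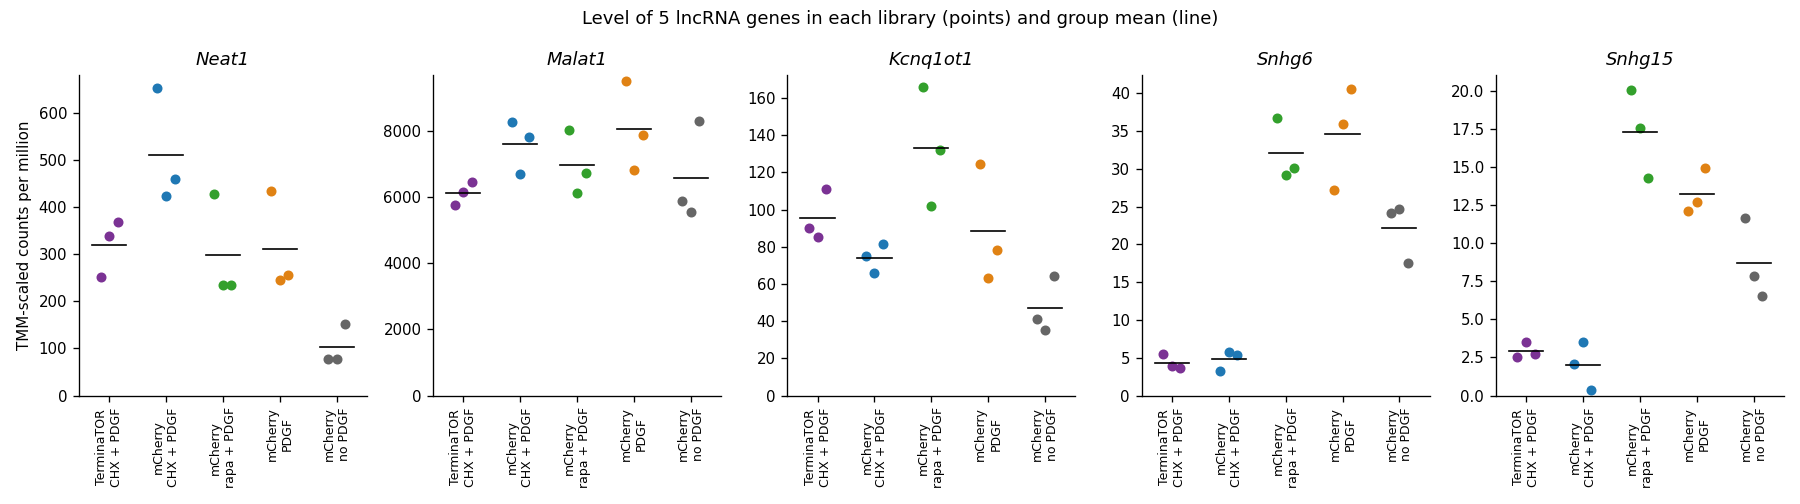
TMM-scaled CPM of the 5 genes with enough reads to test, per library (points) with the group mean (line), in H2A-TerminaTOR cells with cycloheximide (CHX) and PDGF and in H2A-mCherry cells with CHX and PDGF, rapamycin (rapa) and PDGF, PDGF, or no PDGF. *Snhg6* and *Snhg15* are lowest in both CHX groups, and *Neat1* is lowest without PDGF (77.0 to 152 CPM).

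Rapamycin, added with PDGF, gave no call among the members. *Neat1* had 428, 235 and 234 CPM with rapamycin and PDGF, against 433, 245 and 256 CPM with PDGF alone, a change of log2 -0.05 ± 0.36 (edgeR adjusted p = 0.932). *Malat1* had 8033, 6138 and 6735 CPM with rapamycin and PDGF, and its change of log2 -0.21 ± 0.17 was within the spread (edgeR adjusted p = 0.404). *Kcnq1ot1* had 166, 102 and 132 CPM with rapamycin and PDGF, against 124, 63.1 and 78.5 CPM with PDGF alone. The rapamycin libraries overlapped with the first PDGF library, and the change was log2 0.60 ± 0.28 (edgeR adjusted p = 0.141). Without that PDGF library it was log2 0.90 with an adjusted p of 0.0319.

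*Snhg6* had 36.8, 29.2 and 30.2 CPM with rapamycin and PDGF, amid the PDGF libraries (log2 -0.12 ± 0.18, edgeR adjusted p = 0.676). *Snhg15* had 20.1, 17.5 and 14.3 CPM with rapamycin and PDGF, of which only the lowest lay within the PDGF range (log2 0.37 ± 0.27, edgeR adjusted p = 0.318). Thus 0 of 5 tested members were called by edgeR, 0 had an unadjusted p under 0.05 and 0 were called by DESeq2, while limma-voom called 1, *Kcnq1ot1* (log2 0.64, adjusted p = 0.00326). Of all genes tested, 32.3% were called in either direction. Against cells without PDGF, the rapamycin group was higher in 4 members, with 27.8% of all genes called higher and 25.5% lower. *Neat1* was 2.91-fold higher, *Kcnq1ot1* 2.83-fold, *Snhg6* 1.45-fold and *Snhg15* 1.98-fold (edgeR adjusted p = 0.00522, 0.00113, 0.0124 and 0.00192). The groups did not overlap for any of the 4, but the share of all genes without overlap was not counted. The *Snhg6* call was lost without the third library lacking PDGF (adjusted p = 0.0981) or without the first rapamycin library (adjusted p = 0.0794). This comparison and that of PDGF alone share the 3 libraries without PDGF.

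Both hosts that could be tested fell with cycloheximide. *Snhg6* had 3.31, 5.80 and 5.38 CPM in H2A-mCherry cells with cycloheximide and PDGF, against 27.3, 35.9 and 40.6 CPM with PDGF alone. *Snhg15* had 2.07, 3.53 and 0.384 CPM with cycloheximide and PDGF, against 12.1, 12.7 and 14.9 CPM with PDGF alone. In reads, *Snhg15* had only 10, 14 and 2 with cycloheximide and PDGF, against 44, 49 and 72 with PDGF alone. For both hosts every cycloheximide library was below every library without the drug, the group lacking PDGF included. *Snhg6* was 7.22-fold lower (log2 -2.85 ± 0.23, edgeR adjusted p = 1.09e-17) and *Snhg15* 6.96-fold lower (log2 -2.80 ± 0.36, edgeR adjusted p = 6.06e-10). Against cells without PDGF the falls were 4.59-fold for *Snhg6* (adjusted p = 8.71e-13) and 4.57-fold for *Snhg15* (adjusted p = 5.84e-07). The 326-base and 293-base stretches shown above supplied all of the *Snhg6* reads and most of the *Snhg15* reads.

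The low-count hosts could not be tested. *Gas5*, the host of a run of box C/D snoRNAs, had 0, 1 and 2 reads with cycloheximide and PDGF, against 4, 6 and 4 reads with PDGF alone, a ratio of 0.189 with an exact 95% counting interval of 0.0348 to 0.676. *Snhg5* had 1 read in the cycloheximide group, against 3 with PDGF alone (ratio 0.293, interval 0.00559 to 3.65). *Snhg8*, the host of *Snora24*, stood on the other side: it had 6, 3 and 1 reads with cycloheximide and PDGF, against 0, 0 and 2 reads with PDGF alone (ratio 4.40, interval 0.938 to 41.3), and against 0 reads in cells without PDGF it was at least 3.67-fold higher, taking a floor of 3 counts for that group. These intervals cover counting error only. When the filter on low counts was dropped, *Gas5* in cycloheximide against PDGF had an adjusted p of 0.213 and *Snhg8* one of 0.522.

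None of the 3 nuclear lncRNAs was called against PDGF by edgeR. *Neat1* reached 652, 424 and 459 CPM with cycloheximide and PDGF, against 433, 245 and 256 CPM with PDGF alone, overlapping in 1 library of each group. Its change was log2 0.72 ± 0.35 (edgeR adjusted p = 0.129, limma-voom adjusted p = 0.000661). Against cells without PDGF *Neat1* was 4.99-fold higher in the cycloheximide group (log2 2.32 ± 0.37, edgeR adjusted p = 0.00036). *Malat1* had 8270, 6719 and 7833 CPM with cycloheximide and PDGF (log2 -0.09 ± 0.17 against PDGF, edgeR adjusted p = 0.739), and *Kcnq1ot1* had 75.3, 66.1 and 81.4 CPM (log2 -0.24 ± 0.29, edgeR adjusted p = 0.556). With cycloheximide against PDGF, 2 of 5 tested members fell and 0 rose, while 19.6% of all genes fell and 21% rose. Against cells without PDGF the same 2 fell and 1 rose, with 22.8% and 24.6% of all genes. The share of counts on retained-intron transcripts was 1.58% to 1.83% with cycloheximide and PDGF and 2.09% to 2.44% with PDGF alone, and the mitochondrial share was 6.28% to 6.64% with cycloheximide and PDGF and 8.69% to 9.30% with PDGF alone. *Cdh5* of the endothelial markers fell (edgeR adjusted p = 0.0284). The part of these measures in the hosts' fall was not tested.

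**Figure D3:**
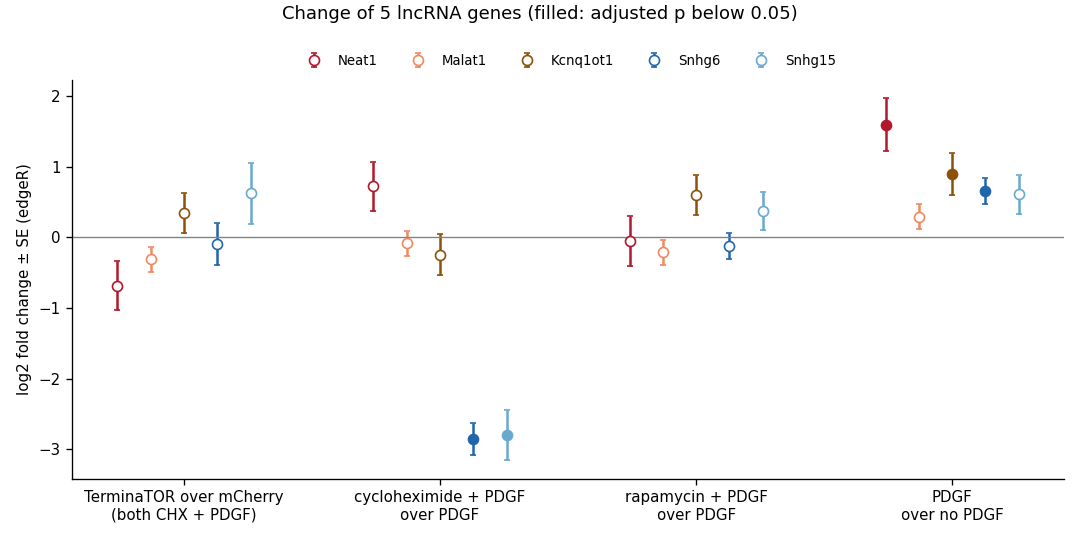
Log2 fold change ± SE (edgeR) of the 5 tested genes for TerminaTOR over mCherry, both with cycloheximide (CHX) and PDGF, cycloheximide and PDGF over PDGF, rapamycin and PDGF over PDGF, and PDGF over no PDGF, with filled points for an adjusted p under 0.05. *Snhg6* (-2.85) and *Snhg15* (-2.80) stand apart with cycloheximide, and *Neat1* (1.60) has the largest change with PDGF among the 5.

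TerminaTOR gave no call among the members. *Neat1* had 253, 339 and 368 CPM in TerminaTOR cells, against 652, 424 and 459 CPM in mCherry cells, both with cycloheximide and PDGF. All 3 TerminaTOR libraries lay below all 3 mCherry libraries, but the change of log2 -0.69 ± 0.35 was not called (edgeR adjusted p = 0.371). *Malat1* had 5755, 6165 and 6466 CPM in TerminaTOR cells, against 8270, 6719 and 7833 CPM in mCherry cells, again without overlap (log2 -0.31 ± 0.17, edgeR adjusted p = 0.424). *Kcnq1ot1* lay the other way, with 90.2, 85.5 and 111 CPM in TerminaTOR cells, against 75.3, 66.1 and 81.4 CPM in mCherry cells, also without overlap (log2 0.35 ± 0.28, edgeR adjusted p = 0.621).

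The hosts were low in both cell lines. *Snhg6* had 5.46, 3.93 and 3.66 CPM in TerminaTOR cells, against 3.31, 5.80 and 5.38 CPM in mCherry cells (log2 -0.09 ± 0.29, edgeR adjusted p = 0.924). *Snhg15* had 2.50, 3.54 and 2.75 CPM in TerminaTOR cells, against 2.07, 3.53 and 0.384 CPM in mCherry cells (log2 0.62 ± 0.43, edgeR adjusted p = 0.511). *Gas5* had 3 reads in each of the 2 groups, and *Snhg8* had 2 reads in TerminaTOR cells, against 10 in mCherry cells (ratio 0.19, exact 95% counting interval 0.0202 to 0.89).

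Of the 5 members tested, 0 were called by edgeR between TerminaTOR and mCherry cells, 0 had an unadjusted p under 0.05 and 0 were called by DESeq2; limma-voom called *Neat1* (log2 -0.72, adjusted p = 0.00681) and *Malat1* (log2 -0.34, adjusted p = 0.0268) lower. The share of all genes called in either direction was 4.92%. Although 3 of the 5 tested members had groups that did not overlap, the share of all genes without overlap was not counted. The lack of overlap is therefore not read as a result about the members. When the fit held only the 2 groups compared, *Kcnq1ot1* was called higher (log2 0.35, adjusted p = 0.0235). The effects of rapamycin and of TerminaTOR were set against each other by a test of their difference, rapamycin minus TerminaTOR. It called 0 of the 5 members (0 at an unadjusted p under 0.05, 0 by DESeq2 and 0 by limma-voom), with differences from log2 -0.25 ± 0.50 for *Snhg15* to log2 0.63 ± 0.50 for *Neat1*, and 24% of all genes called.

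The order of the group means differed between genes. *Neat1* averaged 320 ± 60.1 CPM in TerminaTOR cells with cycloheximide and PDGF, 512 ± 123 CPM in mCherry cells with cycloheximide and PDGF, 299 ± 112 CPM with rapamycin and PDGF, 311 ± 106 CPM with PDGF and 102 ± 43.3 CPM without PDGF (SD, n = 3 each). The 3 groups between the lowest and the highest overlapped with each other, and the highest overlapped with the rapamycin and PDGF groups. *Kcnq1ot1* averaged 95.7 ± 13.8 CPM in TerminaTOR cells with cycloheximide and PDGF, 74.3 ± 7.74 CPM in mCherry cells with cycloheximide and PDGF, 133 ± 32.1 CPM with rapamycin and PDGF, 88.7 ± 31.9 CPM with PDGF and 47.0 ± 15.3 CPM without PDGF (SD, n = 3 each). Its highest group was thus the rapamycin group, which overlapped with the TerminaTOR and PDGF groups. *Malat1* ran only from 6129 ± 357 CPM in TerminaTOR cells to 8078 ± 1346 CPM in mCherry cells with PDGF (SD, n = 3 each).

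Among libraries of the same group, *Neat1*, *Malat1* and *Kcnq1ot1* were often highest or lowest together. In 4 of the 5 groups a single library was highest for all 3 genes: the third of the TerminaTOR group, the first of the rapamycin group, the first of the PDGF group and the third of the group without PDGF. In 3 of the 5 groups a single library, the second, was lowest for all 3. How often other genes were highest or lowest in these same libraries was not counted. The pattern is therefore not read as particular to these 3 genes. The highest library exceeded the lowest by 1.98-fold for *Neat1*, 1.49-fold for *Malat1* and 1.82-fold for *Kcnq1ot1* in the group without PDGF, and by 1.46-fold, 1.12-fold and 1.30-fold in the TerminaTOR group. The share of counts on retained-intron transcripts moved with them in part. It was highest in that same library in the group with rapamycin (2.66%), with PDGF (2.44%) and without PDGF (2.57%), and lowest in the second library of all 4 mCherry groups. In the TerminaTOR group it was lowest in the third library (1.60%), where the 3 genes were highest. Its part in the pattern was not tested. *Snhg6* mostly ran the other way. It was at its group's lowest in the third TerminaTOR library (3.66 CPM), the first PDGF library (27.3 CPM) and the third without PDGF (17.6 CPM). With cycloheximide it was lowest in the first mCherry library (3.31 CPM), where *Neat1* and *Malat1* were highest. In the first rapamycin library, however, it was at its group's highest, 36.8 CPM. *Snhg15* was also highest there (20.1 CPM), and lowest in the first PDGF library (12.1 CPM) and the third without PDGF (6.54 CPM). In the third TerminaTOR library *Snhg15* lay between the others, at 2.75 CPM.

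**Figure D4:**
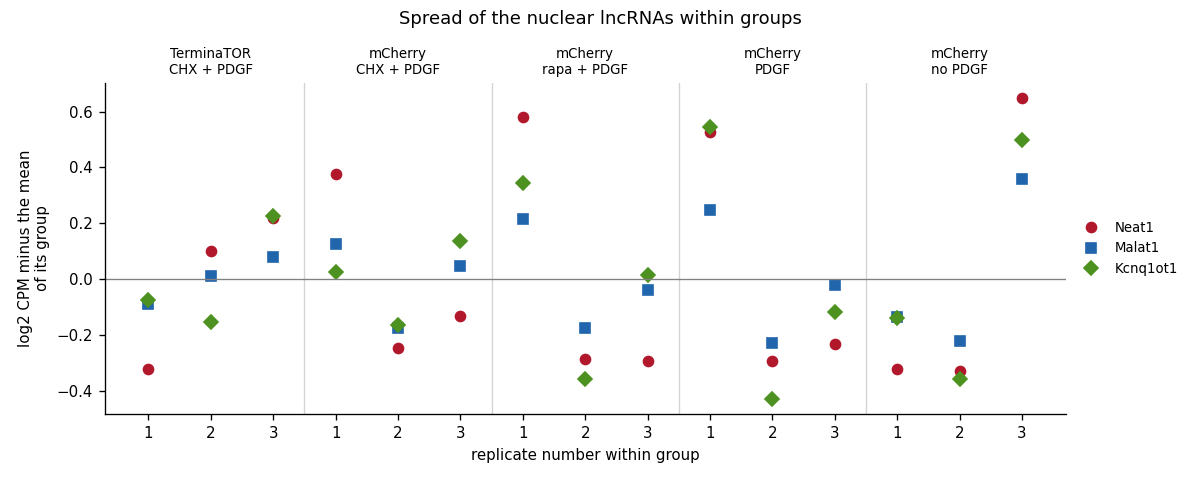
Log2 CPM of *Neat1*, *Malat1* and *Kcnq1ot1* in each library minus the mean of its group, by replicate number within the 5 groups (CHX, cycloheximide; rapa, rapamycin). The 3 genes lie on the same side of 0 in most libraries, and 1 library is highest for all 3 in 4 of the 5 groups.

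Tested genes were ranked by correlation over the 15 libraries, leaving out the members and any gene named with a Gm number, Rik or -ps. Of the genes ranked, *Sf1*, a splicing factor, followed *Neat1* most closely in log2 CPM (Pearson r = 0.941). Next came *Spag9*, a scaffold of JNK signalling (r = 0.936), and *Tcf25* (r = 0.919). For *Malat1* the closest of those ranked was *Fgfr1*, a receptor for fibroblast growth factors (r = 0.861). *Rtl1*, an imprinted gene derived from a retrotransposon (r = 0.803), and *Btbd7* (r = 0.790) came next. These are descriptions over libraries that share groups and depth.

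Other snoRNA host lncRNAs were taken from a list of 14, of which 11 were in the files and 4 had enough reads. With cycloheximide against PDGF, 2 of the 4 fell and 0 rose, with a median log2 change of -0.61 beside 0.01 over all genes. *Zfas1*, host of *Snord12* family snoRNAs, had 0.537 ± 0.533 CPM with cycloheximide and PDGF, against 8.11 ± 1.09 CPM with PDGF alone (SD, n = 3 each), a 13.6-fold fall (log2 -3.77 ± 0.50, edgeR adjusted p = 2.14e-09). The size of that fall rests on few reads: *Zfas1* had 8 over the 3 cycloheximide libraries, against 99 over the 3 PDGF libraries. Its 321 reads came from the retained-intron transcript ENSMUST00000145859.2, whose 1342 single-transcript bases are all intron in other forms. *Snhg17* fell 1.90-fold, to 56.1 ± 6.49 CPM with cycloheximide and PDGF against 107 ± 7.91 CPM with PDGF alone (edgeR adjusted p = 4.2e-11); 3834 of its reads came from ENSMUST00000186993.1, with 671 of 2278 such bases in introns of other forms, and 1145 from ENSMUST00000149667.7, with all 1650. *Snhg14* had 16.7 ± 1.47 CPM with cycloheximide and PDGF, against 13.7 ± 2.06 CPM with PDGF alone, and was not called (log2 0.28 ± 0.21, edgeR adjusted p = 0.296). Its reads were mixed: 464 came from ENSMUST00000189653.1, with all 2932 such bases in introns of other forms. Another 440 came from ENSMUST00000190666.1, with 0 of 1701, and 123 from ENSMUST00000189581.6, with 119 of 5424. *Snhg18*, whose 1486 such bases lie in no intron of another form, had 48.0 ± 3.62 CPM with cycloheximide and PDGF, against 58.4 ± 7.46 CPM with PDGF alone, and was not called (log2 -0.29 ± 0.13, edgeR adjusted p = 0.0564). Whether the falls went with the place of the counted bases was not tested.

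With PDGF against none, *Snhg17* rose (log2 1.12 ± 0.11, edgeR adjusted p = 4.21e-14), while *Snhg14* (log2 -0.64 ± 0.20, adjusted p = 0.00872) and *Snhg18* (log2 -0.41 ± 0.12, adjusted p = 0.00496) fell. *Snhg14*, the long host transcript of the imprinted Prader-Willi region, fell further with rapamycin and PDGF, to 8.78 ± 1.57 CPM against 13.7 ± 2.06 CPM with PDGF alone (log2 -0.65 ± 0.23, adjusted p = 0.026), and 0 of the 4 rose. Between TerminaTOR and mCherry cells 0 of the 4 were called.

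**Figure D5:**
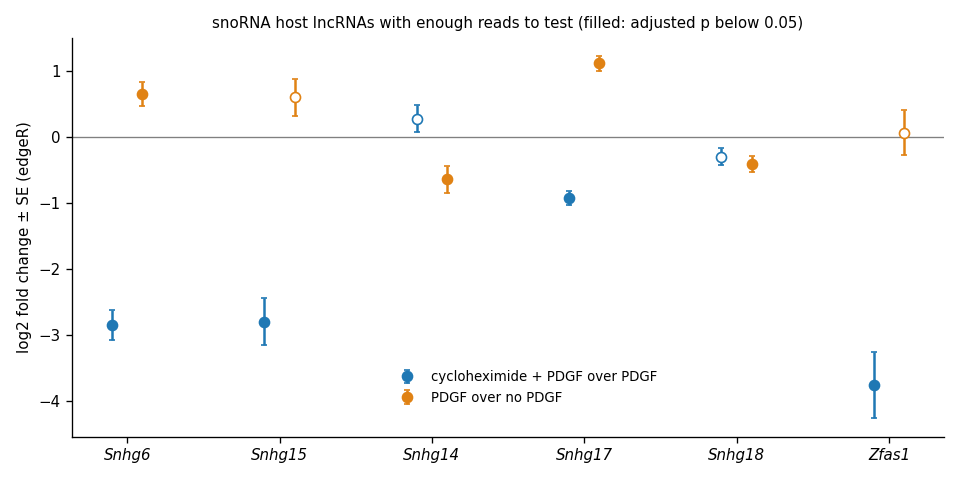
Log2 fold change ± SE (edgeR) of the 6 snoRNA host lncRNAs with enough reads to test, for cycloheximide and PDGF over PDGF (blue) and PDGF over no PDGF (orange), filled where the adjusted p is under 0.05. *Snhg6*, *Snhg15* and *Zfas1* (-3.77) fall most with cycloheximide, and *Snhg14* and *Snhg18* are not called there.

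The counts in the gene lists that follow stand beside these shares of all genes tested: 2.35% rose and 2.57% fell with TerminaTOR, 21% rose and 19.6% fell with cycloheximide against PDGF, 16.3% rose and 16.1% fell with rapamycin against PDGF, and 20.1% rose and 16.9% fell with PDGF. No count is read as particular to its list.

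Beyond the lncRNAs, 306 other genes carry an annotated snoRNA in an intron of the same strand, and 176 of them were tested, mostly protein-coding. With cycloheximide against PDGF 64 fell and 21 rose, with a median log2 change of -0.22 beside 0.01 over all genes. The ribosomal protein gene *Rpl12* fell, with 4 reads over the 3 cycloheximide libraries against 60 over the 3 PDGF libraries (edgeR adjusted p = 4.88e-06), and *Ell2*, a factor of transcription elongation, rose (log2 1.14 ± 0.10, edgeR adjusted p = 3.89e-15). With PDGF 55 rose and 22 fell (median log2 0.22), with *Ell2* among the rises (log2 1.72 ± 0.13, adjusted p = 7.69e-19). With rapamycin 41 rose and 22 fell (median log2 0.06), and with TerminaTOR 6 rose and 3 fell (median log2 0.02). *Ncl*, which encodes nucleolin and hosts snoRNAs, had 383 ± 11.9 CPM in TerminaTOR cells, against 302 ± 26.2 CPM in mCherry cells (SD, n = 3 each; log2 0.34 ± 0.07, edgeR adjusted p = 0.00059).

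Of 17 proteins that bind or assemble snoRNAs, 11 were tested. With PDGF 6 rose and 0 fell, among them *Gar1* (log2 2.45 ± 0.68, edgeR adjusted p = 0.0023), *Nop58* (log2 1.07 ± 0.19, adjusted p = 1.78e-06) and *Nufip1* (log2 1.00 ± 0.08, adjusted p = 4e-19). With rapamycin against PDGF 6 rose and 0 fell, with *Gar1* again among them (log2 1.48 ± 0.51, edgeR adjusted p = 0.0193). *Dkc1*, the pseudouridine synthase of H/ACA particles, rose too (log2 0.81 ± 0.12, adjusted p = 7.83e-08). With cycloheximide 6 fell and 2 rose: *Gar1* fell (log2 -3.24 ± 0.76, adjusted p = 0.000331), as did *Dkc1* (log2 -0.84 ± 0.13, adjusted p = 1.45e-07), and *Shq1*, which assembles H/ACA particles, rose (log2 1.29 ± 0.40, adjusted p = 0.00745). *Gar1* had few reads: 4 over the 3 mCherry libraries with cycloheximide and PDGF, 37 with PDGF alone and 8 without PDGF. TerminaTOR changed 0 of the 11.

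Of 18 nonsense-mediated decay factors, 12 were tested. With PDGF 1 rose and 3 fell, with rapamycin 2 rose and 2 fell, and with cycloheximide 4 rose and 2 fell, with a median log2 change of 0.03 beside 0.01 over all genes. *Upf2*, a core factor, rose with cycloheximide (log2 0.72 ± 0.08, edgeR adjusted p = 3.47e-11), and *Smg9* fell (log2 -1.38 ± 0.58, adjusted p = 0.0486). With TerminaTOR 1 fell, *Rnps1*, with 1.48 ± 0.799 CPM in TerminaTOR cells against 4.58 ± 1.10 CPM in mCherry cells (SD, n = 3 each; log2 -1.66 ± 0.49, adjusted p = 0.0288).

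Of 22 paraspeckle proteins, which assemble on *Neat1*, 19 were tested. With PDGF, where *Neat1* rose 3.02-fold, 5 rose and 4 fell: *Taf15* rose (log2 1.85 ± 0.27, edgeR adjusted p = 1.96e-08) and *Rbm7* fell (log2 -1.09 ± 0.35, adjusted p = 0.00979). With rapamycin 5 rose and 2 fell, and with cycloheximide 2 rose and 5 fell. *Zc3h6* fell with rapamycin (log2 -1.08 ± 0.12, adjusted p = 4.97e-12) and rose with cycloheximide (log2 1.33 ± 0.10, adjusted p = 3.23e-19), where *Taf15* fell (log2 -1.51 ± 0.26, adjusted p = 1.69e-06). With TerminaTOR *Pspc1*, a core paraspeckle protein, rose to 15.02 ± 0.695 CPM in TerminaTOR cells against 7.28 ± 0.879 CPM in mCherry cells (SD, n = 3 each; log2 1.04 ± 0.28, adjusted p = 0.0147), and *Zc3h6* fell (log2 -0.53 ± 0.09, adjusted p = 4.39e-05).

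Of 21 other well-known lncRNAs, 15 were tested. With PDGF 8 rose and 3 fell, led by *Mir22hg* (log2 1.62 ± 0.08, edgeR adjusted p = 3.24e-29), *Mirg* (log2 1.59 ± 0.19, adjusted p = 5.8e-11) and *Mir17hg*, the host of the miR-17 cluster (log2 1.54 ± 0.17, adjusted p = 7.58e-12). With rapamycin 5 rose and 0 fell, with the largest change in *Pvt1* (log2 1.15 ± 0.26, adjusted p = 0.000302). With cycloheximide 2 rose and 3 fell, and *Mir17hg* fell 9.35-fold (log2 -3.22 ± 0.20, adjusted p = 3.04e-21). With TerminaTOR 2 fell and 0 rose: *Mir22hg* (log2 -0.43 ± 0.07, adjusted p = 1.47e-05) and *Meg3* (log2 -0.37 ± 0.06, adjusted p = 1.47e-05).

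Of 12 genes listed for the imprinted domain of *Kcnq1ot1*, 3 were tested. Whether *Kcnq1ot1* silences any of them in these cells was not tested. *Cdkn1c* and *Phlda2* had 0 reads, and *Kcnq1* had 5 reads in TerminaTOR cells, 10 in mCherry cells with cycloheximide, 2 with rapamycin, 0 with PDGF and 1 without. *Cd81* fell with PDGF (log2 -1.33 ± 0.34, edgeR adjusted p = 0.00136). *Trpm5*, a cation channel, rose with cycloheximide, to 16.1 ± 2.69 CPM against 1.78 ± 1.20 CPM with PDGF alone (SD, n = 3 each; log2 3.09 ± 0.38, adjusted p = 1.11e-09). With rapamycin and with TerminaTOR 0 of the 3 were called.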

How the data were processed

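RNA of 15 libraries was captured on oligo-dT beads, per the labels' protocols. The authors deposited whole-number read counts per transcript, and the submitters' processing notes list R 4.1.0, HTSeq 0.9.1 and HISAT2 2.2.1, with no role or order. They also list hg38, a human build, although the identifiers are those of mouse transcripts. No source used here gives the mouse build or the annotation release. Of 142446 identifiers, 141536 matched GENCODE M21 (GRCm38) without the version number, and the 910 others (0.0309% of counts) were left out. HTSeq by default drops reads that fall on more than 1 feature. Counts were summed per gene, filtered with filterByExpr (10603 genes kept) and fitted with edgeR 4.0.16 in R 4.3.3, with TMM scaling, a mean per group over all 15 libraries (10 residual degrees of freedom) and Benjamini-Hochberg adjustment. The SE is approximate, taken as the size of the log2 change over the root of its F statistic. CPM uses the TMM-scaled totals. Intervals and floors (3 counts) cover counting error only, as PCR copies of a molecule were not told apart. Of 30 correlations of same-numbered deviations from the group means, 0 exceeded 0.1 (range -0.0396 to 0.0760). They run over all tested genes, low-count genes included, and so cannot exclude a factor shared by number. In each mCherry group the second library was lowest for *Malat1* and for the retained-intron share. Members, lists and tests were chosen with earlier results of these data known. Genes named from a list were the called ones with the largest changes, up to 3 per comparison. *Snhg14* and *Snhg18* with cycloheximide, *Ncl*, *Ell2* and the genes of the imprinted domain at 0 reads were named after their values were seen. The script was tested on simulated data. Alternatives were RLE or library-size scaling, no filter, DESeq2 1.42.0, limma-voom (limma 3.58.1), only the compared groups, a replicate block, transcripts as features, no retained-intron transcripts, and each library left out.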

Additional observations from a re-analysis of the deposited data

How the results depend on the processing

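Of 840 values of the 5 tested members under an alternative setting, 787 kept their direction and side of the threshold, 13 lost a call, 16 gained 1 and 24 changed sign, all 24 of them for values that were not called. The rise of *Neat1* with PDGF (log2 1.30 to 2.02) and the falls of *Snhg6* (log2 -3.02 to -2.66) and *Snhg15* (log2 -3.46 to -2.26) with cycloheximide against PDGF held under all 24 alternatives. The rise of *Kcnq1ot1* with PDGF was lost under 7 of 24 (adjusted p up to 0.142), and that of *Snhg6* under 2 (adjusted p up to 0.0730). The cause was not tested.

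Scaling by library size alone moved the median of all genes by log2 -0.25 with PDGF, by -0.13 and -0.14 for rapamycin and cycloheximide against PDGF, by -0.38 and -0.39 for both against no PDGF, and by -0.16 in rapamycin minus TerminaTOR. With it, 1379 genes rose and 3111 fell with PDGF (2128 and 1794 in the main result; 30.7% of calls higher, 54.3% in the main result) and 1 member rose. Against no PDGF, 1918 rose and 4153 fell with rapamycin (2948 and 2708), with 2 members higher, and 1615 rose and 4400 fell with cycloheximide (2611 and 2417). *Malat1* then changed sign to log2 -0.30 with rapamycin against no PDGF, -0.18 with cycloheximide against no PDGF, and -0.059 in rapamycin minus TerminaTOR. The share of calls that were higher was 35.7% with rapamycin against PDGF (50.3% in the main result), 39.0% with cycloheximide against PDGF (51.8%) and 60.5% with TerminaTOR (47.7%).

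Limma-voom called 5 members higher with PDGF, 1 with rapamycin, 1 with cycloheximide against PDGF and 3 against no PDGF, and 2 lower with TerminaTOR. With only the compared groups, 397 genes (249 in the main result) and 1 member were higher with TerminaTOR, and 2 members were higher with cycloheximide against no PDGF. Without a filter, 169 genes (273) were lower with TerminaTOR. Without retained-intron transcripts, *Snhg6* in rapamycin minus TerminaTOR was log2 0.011. With the replicate block, 2 members were higher with cycloheximide against no PDGF, *Kcnq1ot1* being added (adjusted p = 0.0406), and the block changed no other call of a member. The labels do not say whether a number marks a shared culture.

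Leaving out each library in turn gave 1 to 4 members higher with PDGF, 0 to 1 higher with rapamycin and 1 to 2 higher with cycloheximide against no PDGF. The lowest count with PDGF came without the third PDGF library, the highest with rapamycin without the first PDGF library, and the highest with cycloheximide without the third library lacking PDGF. With TerminaTOR, 141 to 277 genes were higher and 154 to 295 lower. The lowest counts were without the first and the third TerminaTOR library, and counts also fell by over 1.5 times without the second TerminaTOR library (180 lower) and without the first (157 higher) or the third (155 higher, 165 lower) mCherry library with cycloheximide. Log2 changes that changed sign ranged as follows. With rapamycin *Neat1* ran from -0.41 to 0.24 and *Snhg6* from -0.27 to 0.012. With cycloheximide against PDGF *Malat1* ran from -0.21 to 0.022 and *Kcnq1ot1* from -0.45 to 0.043. With TerminaTOR *Snhg6* ran from -0.34 to 0.031, and with rapamycin against no PDGF *Malat1* ran from -0.025 to 0.29. In rapamycin minus TerminaTOR *Malat1* ran from -0.016 to 0.23, *Snhg6* from -0.16 to 0.21 and *Snhg15* from -0.89 to 0.28.

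Of the 10 genes, 5 had 0 to 44 reads in all and could not be tested; these 5 have 12 to 906 bases of a single transcript.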
